A study of Mus musculus with 6 samples.

Results

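The 10 genes described here code for proteins that bind calcium or act only with it. They are the protein arginine deiminases Padi2, Padi3 and Padi4, the penta-EF-hand genes Gca (grancalcin), Sri (sorcin) and Pdcd6 (ALG-2), the calpain genes Capn1, Capn2 and Capns1, and the actin-capping gene Capg. They were chosen by name from the 27179 genes in the table, and all 10 were present and passed the filter on low values. Padi4, Padi2 and Gca were taken up because they had lower values under the Asic3-null label, and the others stand beside them as relatives. Differences between the labelled groups are therefore given for each of the 10 as descriptions, with no p-value. How many of the 10 pass the threshold of the fit is given only as a count from which nothing is read. RNA came from leukemia-initiating cells (LICs), sorted from bone marrow as YFP+Mac-1+c-Kit+ in a mouse AML driven by the retroviral fusion MLL-AF9, with 3 libraries labelled Asic3-/- (Asic3-null) and 3 labelled Asic3+/+ (WT). Both groups are given as C57BL/6 mice 8 weeks of age, both carry MLL-AF9 with a YFP reporter from the same kind of vector, and both leukemias were started from transduced Lin- fetal liver cells put into lethally irradiated C57BL/6 recipients, which keep host cells outside the YFP gate. The Asic3-/- cells came from knockout mice, and whether a library is 1 mouse or a pool is not given in the sources used here, so p-values measure only the spread between these libraries, which may be technical.

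Libraries held between 1947168 and 2381861 reads, as inferred from the values, which are RPKM (reads scaled to the length of the gene and to the size of the library). Asic3 itself, the targeted gene, went against its labels. It had 1.22, 1.85 and 0.435 RPKM in the libraries labelled WT and 9.12, 4.11 and 6.58 RPKM in those labelled Asic3-null. The difference was 1.81 in log2(RPKM + 1) (standard error 0.35, limma adjusted p = 0.0260), and it missed the threshold when Asic3-null replicate 1 or 3, or WT replicate 1 or 3, was left out (log2 differences of 1.58, 1.78, 1.85 and 1.54). An exact two-sided permutation test over the 6 libraries gave p = 0.1, the smallest that 3 against 3 allows. There are no values per exon, so this does not show whether the deleted part was transcribed, and every direction below is that of the labels. The groups also differed in sex-linked genes. Xist had 0.036 ± 0.019 RPKM under the WT label and 58.0 ± 12.9 RPKM under the Asic3-null label (SD, n = 3 each), and 4 Y-linked genes (Ddx3y, Eif2s3y, Kdm5d and Uty) summed to between 81.4 and 118.2 RPKM and to 0 RPKM. Genotype label and sex of the sequenced cells cannot be told apart for any gene below. Of the sort markers, Kit was present in all libraries (8.97 to 20.4 RPKM), and Itgam, the Mac-1 chain, at 55.1 to 89.5 RPKM under the WT label and 12.3 to 16.9 RPKM under the Asic3-null label.

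Protein arginine deiminases turn arginine in proteins into citrulline and need bound calcium to do so. PADI4 enters the nucleus, acts on histones and is known for its part in the chromatin release of neutrophils, PADI2 is the widely expressed form and is found in macrophages, and PADI3 is best known from the hair follicle. Penta-EF-hand proteins bind calcium through a run of EF-hand loops and pair with each other or with partners at membranes: grancalcin is named for granulocytes, sorcin binds the ryanodine receptor, and ALG-2 binds ALIX and the coat protein SEC31A. The calpains are calcium-dependent cysteine proteases in which a large catalytic subunit (CAPN1 or CAPN2) pairs with the small subunit CAPNS1, and both carry penta-EF-hand domains, while calpastatin inhibits them. CAPG caps the barbed ends of actin filaments and belongs to the gelsolin superfamily, not to the penta-EF-hand family.

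RefSeq promoter sequences of GRCm38.p6 were found for all 10 genes (11 starts, 2 of them of Capn1). The stretch from 250 to 11 bases before the start in the promoter table is shown for Padi4, Padi2 and Gca, 5′ to 3′ on the strand of the gene, because these are the genes the set is built on and their start regions differ in the motifs they hold. Capitals mark TATAAA (the TATA box), GGGCGG (the GC box, bound by Sp1), TTNNGNAA (a C/EBP core) and GAGGAA (a PU.1 core), each searched on both strands, so that CCGCCC is a GC box on the other strand.
Padi4, chr4:140774214-140774453, minus strand: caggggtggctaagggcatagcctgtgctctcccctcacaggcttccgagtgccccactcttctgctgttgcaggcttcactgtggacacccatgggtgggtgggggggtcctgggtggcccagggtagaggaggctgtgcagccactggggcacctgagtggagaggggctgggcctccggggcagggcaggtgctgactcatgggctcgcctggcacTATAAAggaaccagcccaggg
Padi2, chr4:140906110-140906349, plus strand: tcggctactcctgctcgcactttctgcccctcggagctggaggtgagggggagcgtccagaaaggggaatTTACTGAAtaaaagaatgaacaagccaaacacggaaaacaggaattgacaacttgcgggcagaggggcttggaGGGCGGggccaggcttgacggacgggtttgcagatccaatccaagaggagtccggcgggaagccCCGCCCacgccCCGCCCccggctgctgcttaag
Gca, chr2:62664077-62664316, plus strand: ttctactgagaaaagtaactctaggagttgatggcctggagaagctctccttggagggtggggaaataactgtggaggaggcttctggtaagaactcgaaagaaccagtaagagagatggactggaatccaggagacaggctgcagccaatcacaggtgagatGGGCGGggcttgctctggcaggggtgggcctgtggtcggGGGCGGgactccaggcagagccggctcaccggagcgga
The start in the promoter table lies inside the RefSeq gene span, by 36 bases for Padi4 and by 24 for Padi2, and is at the end of the span for Gca. For Capns1, Capg and the second start of Capn1 it lies 3730, 11365 and 578 bases inside the span, so those windows are not at its 5′ end. TATAAA stood in the window of Padi4, 31 bases before the start in the promoter table and so within the gene span, and in that of no other gene of the 10, where 12.1% of the 32841 promoters in the table held it. Padi2 held 3 GC boxes and Gca held 2, Padi4 held none, and 5 of the 10 genes (Padi2, Padi3, Gca, Pdcd6 and Capn1) held at least 1, against 31.3% of all promoters. A C/EBP core was found for Padi2, Sri, Pdcd6, Capn1 and Capns1 (36.0% of all promoters), a PU.1 core only for Capn1 among the 10 (22.3%), and neither TGACAG (MEIS1, 15.3%) nor TGACGTCA (CREB, 1.44%) for any. The shorter TGACG, which is part of the CREB site, was found for Padi2 (16.9%), and the GATA-factor core AGATAA was found for Capn1 (9.74%). These are matches of letters in 1 window per start and not binding sites. Gene positions below are those of RefSeq on the same build.

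Padi4 showed the widest gap of the 10 genes between the labelled groups. Padi4 (Entrez 18602, chromosome 4, 140745508 to 140774239, minus strand) had 34.8, 44.0 and 36.3 RPKM in the libraries labelled WT and 6.22, 11.5 and 6.61 RPKM in those labelled Asic3-null. The groups lay far apart, with Asic3-null replicate 2 the highest of its group at 29.9% of the WT mean. Group means were 38.4 ± 4.9 and 8.09 ± 2.91 RPKM (SD, n = 3 each), so that the libraries labelled Asic3-null held 21.1% of the WT level, a difference of -2.15 in log2(RPKM + 1) (standard error 0.23). Recovered reads were 193, 226 and 227 against 38, 72 and 41.

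Padi2 was lower by less, and its reads share sequence with an antisense neighbour. Padi2 (Entrez 18600, chromosome 4, 140906336 to 140952586, plus strand) had 32.6, 31.8 and 25.9 RPKM in the libraries labelled WT and 15.4, 18.7 and 18.3 RPKM in those labelled Asic3-null. No library of one group reached the other, and WT replicate 3 was the lowest of its group. Group means were 30.1 ± 3.7 and 17.5 ± 1.8 RPKM (SD, n = 3 each), 58.0% of WT, with a difference of -0.75 in log2(RPKM + 1) (standard error 0.16). The antisense lncRNA Gm13031 overlaps the end of Padi2 and shares 149 of its 5013 exon bases in GENCODE M21, and the libraries do not mark strand. Gm13031 had 51 reads under the WT label and 22 under the Asic3-null label, against 913 and 586 on Padi2.

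Padi3 was near the limit of detection. Padi3 (Entrez 18601, chromosome 4, 140785369 to 140810648, minus strand) had 3.41, 2.51 and 3.03 RPKM in the libraries labelled WT and 0.704, 1.37 and 1.67 RPKM in those labelled Asic3-null, which rest on 22, 15 and 22 reads against 5, 10 and 12. The groups did not overlap, and the difference was -0.85 in log2(RPKM + 1) (standard error 0.28). Of the remaining deiminases, Padi1, the epidermal form, had 7 reads under the WT label and 3 under the Asic3-null label, Padi6, the oocyte form, had 2 and 1, and neither passed the filter.

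The make-up of the deiminase transcripts follows from the differences given above for each gene. The ratios here restate those differences and are no separate result. On the RPKM scale, which is per length, the ratio of Padi4 to Padi2 was 1.07, 1.38 and 1.40 in the libraries labelled WT and 0.403, 0.612 and 0.362 in those labelled Asic3-null, so Padi4 stood above Padi2 in each WT library and below it in each Asic3-null library. Padi4 made up 53.6 ± 3.9% of the summed level of Padi2, Padi3 and Padi4 in the libraries labelled WT and 29.7 ± 5.9% in those labelled Asic3-null (SD, n = 3 each). The sum itself was 70.8, 78.3 and 65.3 RPKM against 22.4, 31.5 and 26.5 RPKM. Padi3 relative to Padi2 overlapped between the groups (0.079 to 0.117 against 0.046 to 0.091).

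**Figure D1:**
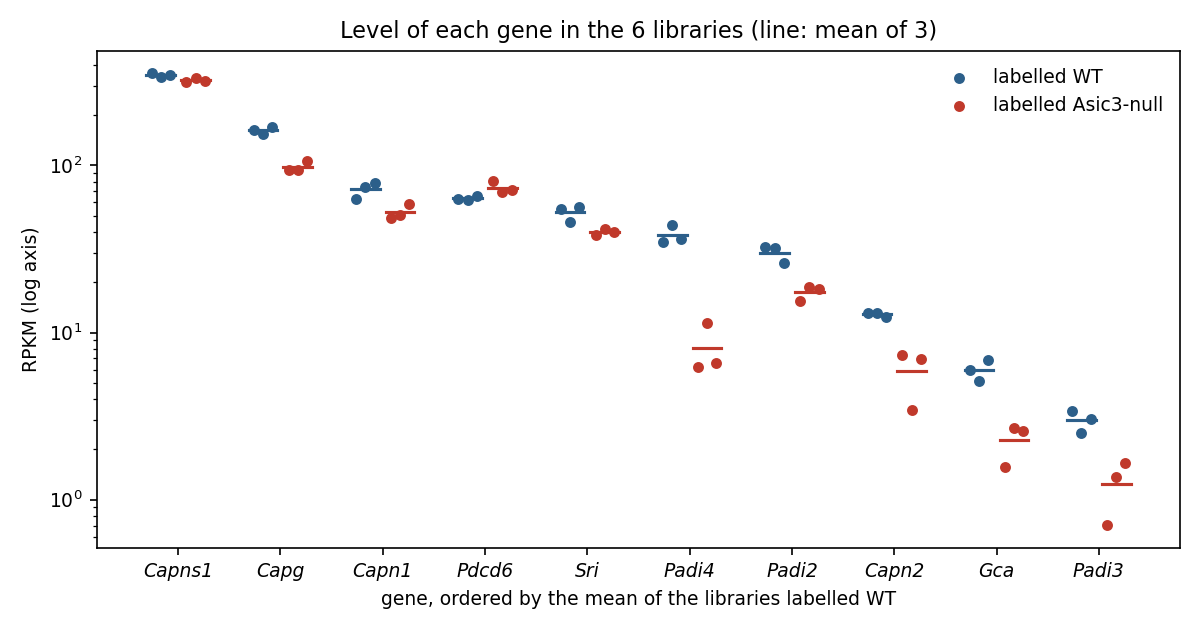
RPKM (log axis) of the 10 genes in each library, with blue points for the 3 libraries labelled WT, red points for the 3 labelled Asic3-null and lines at the means. Padi4 has means of 38.4 and 8.09 RPKM and changes places with Padi2 (30.1 and 17.5 RPKM), Capns1 has 347 and 323 RPKM, and Pdcd6 is the gene of the 10 whose red points lie above the blue ones.

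Grancalcin was expressed at a low level and had lower values under the Asic3-null label. Gca (Entrez 227960, chromosome 2, 62664327 to 62694109, plus strand) had 5.93, 5.15 and 6.81 RPKM in the libraries labelled WT and 1.58, 2.68 and 2.59 RPKM in those labelled Asic3-null, from 41, 33 and 53 reads against 12, 21 and 20. The highest Asic3-null library stayed below the lowest WT library. Group means were 5.96 ± 0.83 and 2.28 ± 0.61 RPKM (SD, n = 3 each), 38.3% of WT, with a difference of -1.10 in log2(RPKM + 1) (standard error 0.24). Kcnh7 lies on the other strand over 696 of the 3409 exon bases of Gca and had 3 reads under the WT label and 0 under the Asic3-null label.

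Sorcin, a penta-EF-hand relative of grancalcin, was more abundant and differed by less. Sri (Entrez 109552, chromosome 5, 8046078 to 8069314, plus strand) had 54.8, 45.8 and 56.5 RPKM in the libraries labelled WT and 38.5, 41.4 and 39.7 RPKM in those labelled Asic3-null, 76.1% of WT, a difference of -0.38 in log2(RPKM + 1) (standard error 0.13). WT replicate 2 lay nearest to the other group without touching it. Gca stood at 11.4 ± 0.6% of Sri in the libraries labelled WT and at 5.70 ± 1.39% in those labelled Asic3-null (SD, n = 3 each), without overlap.

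Pdcd6 went the other way. Pdcd6 (Entrez 18570, chromosome 13, 74303121 to 74317326, minus strand) had 62.7, 61.7 and 66.0 RPKM in the libraries labelled WT and 80.5, 68.9 and 71.5 RPKM in those labelled Asic3-null, 116% of WT, a difference of 0.21 in log2(RPKM + 1) (standard error 0.12), and Asic3-null replicate 1 was the highest. The ratio of Sri to Pdcd6 was 0.824 ± 0.071 in the libraries labelled WT and 0.545 ± 0.062 in those labelled Asic3-null (SD, n = 3 each). Of the 3 penta-EF-hand genes, Gca and Sri were lower and Pdcd6 was higher under the Asic3-null label.

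The calpain subunits differed in size of change, with Capn2 the lowest against WT. Capn2 (Entrez 12334, chromosome 1, 182467253 to 182517610, minus strand), the large subunit of m-calpain, had 13.1, 13.1 and 12.3 RPKM in the libraries labelled WT and 7.32, 3.43 and 6.95 RPKM in those labelled Asic3-null. Asic3-null replicate 2 was the lowest by a wide margin, with 26 reads against 54 and 52 in its group. The level was 45.9% of WT, a difference of -1.06 in log2(RPKM + 1) (standard error 0.25), which lies next to that of Gca and beyond that of Padi2, and without that library it was -0.77, against -0.80 for Padi2. Capn1 (Entrez 12333, chromosome 19, 5988545 to 6015825, minus strand), the large subunit of mu-calpain, had 63.2, 74.2 and 78.6 RPKM against 48.2, 50.7 and 58.7 RPKM, 72.9% of WT, a difference of -0.45 in log2(RPKM + 1) (standard error 0.14). The lncRNA Gm10814 lies on the other strand over 394 exon bases of Capn1 and had 104 reads under the WT label and 94 under the Asic3-null label, against 1479 and 1181 on Capn1.

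The shared small subunit was the most abundant of the 10 genes and nearly level. Capns1 (Entrez 12336, chromosome 7, 30186934 to 30198883, minus strand) had 355, 336 and 349 RPKM in the libraries labelled WT and 317, 331 and 321 RPKM in those labelled Asic3-null, 93.2% of WT, a difference of -0.10 in log2(RPKM + 1) (standard error 0.10). The ratio of Capns1 to the sum of Capn1 and Capn2 was 4.11 ± 0.47 in the libraries labelled WT and 5.57 ± 0.63 in those labelled Asic3-null (SD, n = 3 each), and Capn2 made up 15.2 ± 1.8% against 10.04 ± 3.46% of the 2 large subunits together, both without overlap. Asic3-null replicate 1, at 13.2%, lay just under the lowest WT library, at 13.6%, for the share of Capn2. The inhibitor Cast, calpastatin, had 38.9 ± 5.1 RPKM in the libraries labelled WT and 30.9 ± 8.0 RPKM in those labelled Asic3-null (SD, n = 3 each, with an adjusted p of 0.455 from limma). Relative to the large subunits it overlapped between the groups (36.3 to 54.5% against 40.0 to 63.2%).

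**Figure D2:**
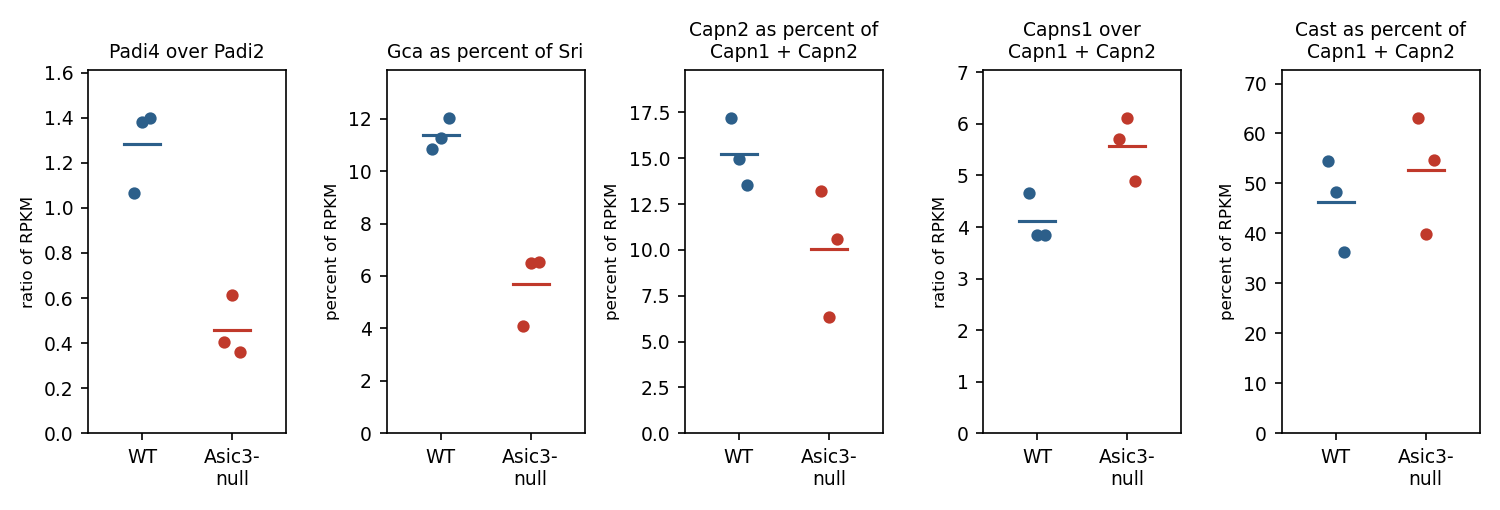
Ratios or percents of RPKM within each library, from 0, for Padi4 over Padi2, Gca against Sri, Capn2 within Capn1 + Capn2, Capns1 over Capn1 + Capn2 and Cast against Capn1 + Capn2, with points for libraries and lines for group means. The first 4 panels show groups that do not overlap (1.28 against 0.459 for Padi4 over Padi2), and the last shows groups that do.

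Capg was abundant, and each Asic3-null library held less of it than each WT library. Capg (Entrez 12332, chromosome 6, 72538282 to 72562983, plus strand) had 163, 153 and 169 RPKM in the libraries labelled WT and 94.1, 94.1 and 105.7 RPKM in those labelled Asic3-null. The groups were tight and well apart. Group means were 161.8 ± 7.9 and 98.0 ± 6.7 RPKM (SD, n = 3 each), 60.5% of WT, with a difference of -0.72 in log2(RPKM + 1) (standard error 0.11), close to that of Padi2.

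Over the 10 genes, 9 were lower and 1 was higher under the Asic3-null label with no overlap between groups, where 11.4% of the tested genes were lower and 11.2% higher in that way. With limma on log2(RPKM + 1), 4 of the 10 had an adjusted p under 0.05, all lower, and 3.35% of the 12037 tested genes did (2.82% lower). The set was drawn up with this contrast known, and nothing is read from these counts. The line between the genes the set was built on and the rest was not sharp, since Gca and Padi2 had differences of -1.10 and -0.75 in log2(RPKM + 1) and Capn2 had -1.06. Without Asic3-null replicate 2 the order of Capn2 and Padi2 turned (-0.77 and -0.80, with Gca at -1.19). With 1 library left out the count of 4 was 1 (without Asic3-null replicate 1) or 2 (without any of the other 5).

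By level per length, the WT order was Capns1, Capg, Capn1, Pdcd6, Sri, Padi4, Padi2, Capn2, Gca and Padi3, from 347 to 2.98 RPKM. Of the neighbours in this order only Capn1 and Pdcd6 overlapped between their libraries. In the libraries labelled Asic3-null, Pdcd6 stood above Capn1 and Padi2 above Padi4, and the order ran from 323 to 1.25 RPKM. There Padi4 overlapped with Capn2 and Gca with Padi3, while the other neighbours did not overlap.

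Markers of late neutrophils were lower under the Asic3-null label as well, and their summed level, carried by S100a8, S100a9, Ngp, Lcn2 and Camp, lay at smaller percents of the WT mean than any of the 10 genes. Of 12 late neutrophil markers (Camp, Ltf, Ngp, Lcn2, Mmp8, Mmp9, S100a8, S100a9, Retnlg, Cxcr2, Ly6g and Cd177), 10 were tested and all 10 fell (limma, adjusted p under the threshold), and the list summed to between 3899 and 4341 RPKM under the WT label and between 239 and 375 RPKM under the Asic3-null label. Against the WT mean the sum was at 5.80 to 9.08%, Padi4 at 16.2 to 29.9%, Gca at 26.4 to 45.0%, Capn2 at 26.7 to 57.0%, Padi2 at 51.2 to 62.1% and Capg at 58.1 to 65.3%. Single tested markers ran from 2.33% of the WT mean for Camp to 27.2% for Cd177, which lies above Padi4 at 21.1%. Ly6g, a surface marker of mature neutrophils, had no read under the WT label and 1 under the Asic3-null label. Of 7 monocyte and macrophage markers 6 were tested and 3 fell, with sums of 1532 to 1696 RPKM under the WT label and 1125 to 1328 RPKM under the other. Most of that sum was Ly6c2, at 79.0% of WT, and the 3 that fell lay further down, with Csf1r, the receptor for M-CSF, at 34.5%, Ccr2, a chemokine receptor, at 29.9% and Adgre1, which codes for F4/80, at 37.3% of WT. Of 5 early granule progenitor markers 1 (Elane) fell, and the sums overlapped (4119 to 6415 against 3638 to 4796 RPKM). Among all tested genes 2.82% fell at the same threshold. The part of these shifts in the values of the 10 genes was not tested, and in bulk samples fewer cells of a type and less RNA per cell cannot be told apart.

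Markers of more distant lineages were also summed. T cell markers summed to at most 0.741 RPKM in any library, with Cd3e at 0, and erythroid markers to between 2.84 and 10.3 RPKM under the WT label and between 0.972 and 2.41 RPKM under the Asic3-null label. Of the B cell list Ms4a1 was at 0 and Cd79b was well expressed, at 44.7 ± 3.8 RPKM under the WT label and 42.6 ± 5.0 RPKM under the Asic3-null label (SD, n = 3 each). Mast cell and basophil markers summed to 57.4 to 128 RPKM under the WT label and 115 to 127 RPKM under the other. Prss34, Mcpt4, Tpsb2 and Fcer1a were at 0, and nearly all of this sum was Cpa3 and Mcpt8. Megakaryocyte markers summed to 6.17 to 11.4 RPKM under the WT label and 10.96 to 22.5 RPKM under the other. Pf4 and Ppbp were at 0, and nearly all of this sum was Itga2b. Itga2b had means of 7.73 and 16.3 RPKM under the WT and Asic3-null labels, with overlapping groups (limma adjusted p = 0.145).

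**Figure D3:**
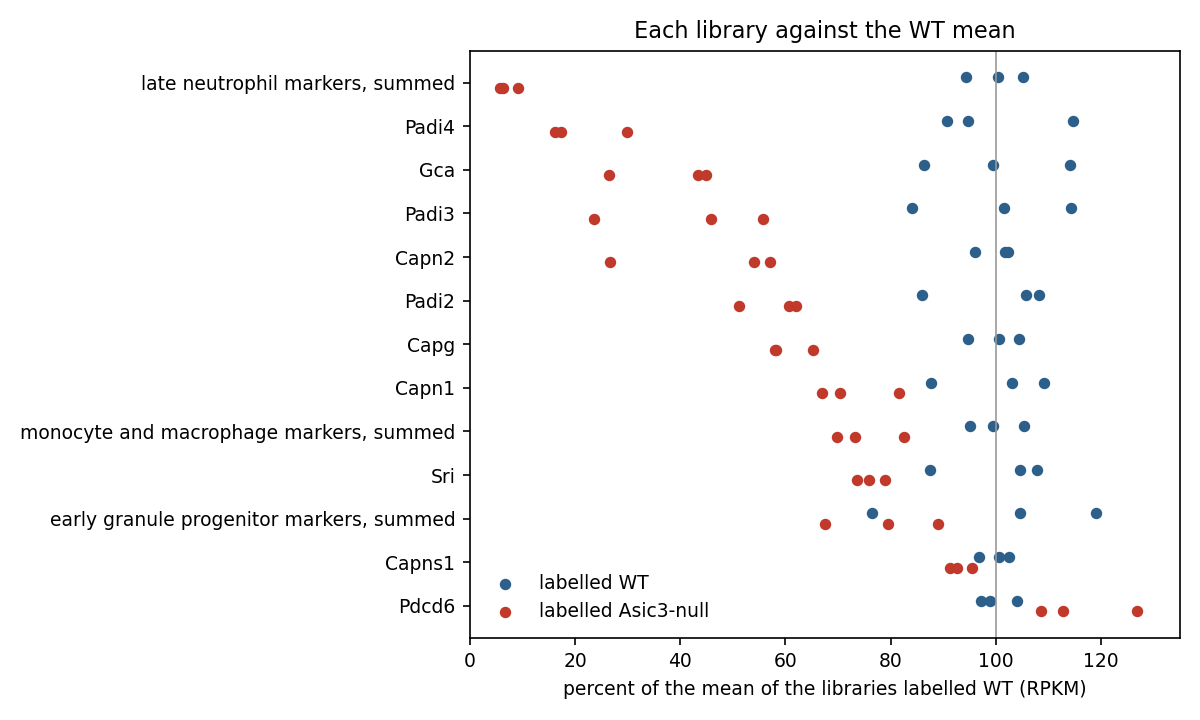
Each library as percent of the mean of the libraries labelled WT, on the RPKM scale, for the 10 genes and for the summed late neutrophil, monocyte and macrophage, and early granule progenitor markers (blue WT, red Asic3-null). The late neutrophil sum lies lowest in red (5.80 to 9.08%), then Padi4 (16.2 to 29.9%), and Pdcd6 is the item whose red points all lie above 100%.

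The genes whose log2(RPKM + 1) over the 6 libraries was most like that of Padi4, among 6885 with a mean of at least 10 RPKM, were Tmsb4x (thymosin beta 4, which binds actin monomers), S100a9 (a subunit of calprotectin) and Foxred2, with Pearson's r of 0.997, 0.993 and 0.991. For Padi2 they were Ncf4 (a cytosolic subunit of the phagocyte oxidase), Lilrb4a (an inhibitory receptor) and Ms4a6c, with r of 0.997, 0.996 and 0.994. For Gca they were Nrros, Lcp1 (L-plastin, an actin-bundling protein that binds grancalcin) and Aldh3b1, with r of 0.996, 0.996 and 0.993. These correlations are descriptions over 6 libraries that fall into 2 labelled groups and share that label with the gene they are compared with. Among these genes S100a9 was at 1081 and 54.8 RPKM in the libraries labelled WT and Asic3-null and Tmsb4x at 3256 and 2000.2 RPKM.

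The Padi genes lie in a cluster of 225 kb on chromosome 4, with Gm13032 and 4930515B02Rik among them. The table held 21 genes within 500 kb of Padi4, 13 of them tested, 3 of which are the deiminases described above. Of the other 10, which were not chosen for this contrast, limma called none (none with limma-voom), and at an unadjusted p under 0.05 there were 2 lower and 1 higher. Of all tested genes 3.35% were called, and 9.45% were lower and 6.43% higher at an unadjusted p under 0.05. The nearest expressed gene on the far side of Padi6, Rcc2, had 182 ± 17 RPKM in the libraries labelled WT and 237 ± 23 RPKM in those labelled Asic3-null (SD, n = 3 each, limma adjusted p = 0.175). Beyond Padi2, Sdhb, a subunit of respiratory complex II, had 110.5 ± 6.6 and 113.3 ± 15.3 RPKM (SD, n = 3 each, adjusted p = 0.945), Atp13a2 had 110.0 ± 23.2 and 90.7 ± 19.6 RPKM (adjusted p = 0.539), and Necap2 had 83.8 ± 3.6 and 63.6 ± 0.4 RPKM (adjusted p = 0.123, all from limma). Gm13031, which overlaps Padi2, had 8.78 ± 2.86 and 3.38 ± 0.50 RPKM (SD, n = 3 each, limma adjusted p = 0.0593). Crocc, Arhgef10l, Szrd1, Fbxo42 and Cplane2 had adjusted p between 0.341 and 0.997 (limma). Igsf21 and 4930515B02Rik were at 0, and Gm13032, Mfap2, Spata21 and Arhgef19 did not pass the filter.

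**Figure D4:**
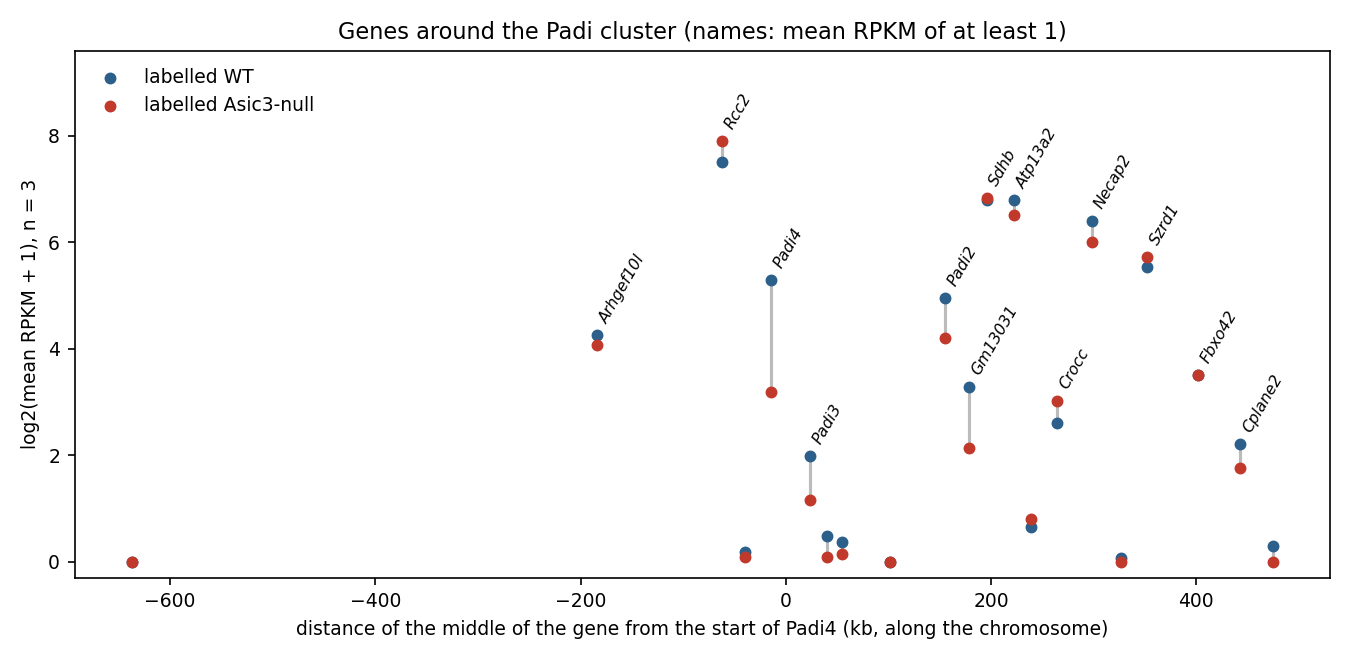
Mean level on the scale log2(mean RPKM + 1) of the 21 genes around the Padi cluster against the distance of their middle from the start of Padi4 in kb, with blue for WT, red for Asic3-null and a grey line joining the means (n = 3 each). The long grey lines belong to Padi4, Padi3, Padi2 and Gm13031, while Sdhb and Fbxo42 show coinciding points.

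Other genes of these families and pathways were followed by lists chosen by name, 59 genes in all, of which 43 were tested. The lists were drawn up with earlier results of these data known. The counts here and the adjusted p-values of list genes below are therefore descriptions, and nothing about a pathway as a whole is read from them. With limma 7 of the 43 fell under the Asic3-null label and none rose (8 and none with limma-voom), at an adjusted p under 0.05, where 2.82% of all tested genes fell and 0.523% rose, and at an unadjusted p under 0.05 the counts were 14 and 2, against the same 9.45% and 6.43% of all tested genes. Their median difference was -0.25 in log2(RPKM + 1), where that of all tested genes was 0.034. Leaving out Asic3-null replicate 1, 2 or 3 brought the count of 7 to 2, 3 or 3, and leaving out WT replicate 1, 2 or 3 brought it to 4, 1 or 2. Cybb was the gene called in each of these fits. Of the 7 genes, 4 (Elane, Cybb, Cyba and Ncf4) stood on the chromatin release list described below.

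Of the lists, the further penta-EF-hand and calpain genes come first. None of the 6 tested further penta-EF-hand and calpain genes was called (none at an unadjusted p under 0.05, and none by limma-voom), and their median difference was 0.017 in log2(RPKM + 1). Pef1, peflin, the partner of ALG-2, was the most abundant of them, with 33.0 ± 2.5 RPKM in the libraries labelled WT and 37.0 ± 1.1 RPKM in those labelled Asic3-null (SD, n = 3 each; difference 0.16 with standard error 0.13, limma adjusted p = 0.588). Its groups, like those of Pdcd6, did not overlap, with the Asic3-null label higher. Capn3 was the other of the 6 without overlap and was lower, with 2.05, 2.21 and 1.82 RPKM under the WT label and 1.73, 0.843 and 0.855 RPKM under the Asic3-null label (difference -0.52 with standard error 0.28, limma adjusted p = 0.408). Capn6, Capn8 and Capn11 were at 0 in all libraries. Of the 6 tested binding partners of penta-EF-hand proteins none was called, with 3 at an unadjusted p under 0.05, all lower. Lcp1 had 191 ± 10 RPKM in the libraries labelled WT and 134 ± 10 RPKM in those labelled Asic3-null (SD, n = 3 each; difference -0.51 with standard error 0.11, limma adjusted p = 0.0503), and passed the threshold with limma-voom on the recovered reads (adjusted p = 0.0280). Over the 14 alternatives its adjusted p lay between 0.0280 and 0.168.

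In the gelsolin superfamily 1 of the 4 tested genes, Gsn, fell. Gsn (gelsolin, which severs and caps actin filaments) had 44.4, 32.2 and 29.2 RPKM in the libraries labelled WT and 13.1, 15.0 and 20.1 RPKM in those labelled Asic3-null, without overlap, a difference of -1.08 in log2(RPKM + 1) (standard error 0.21, limma adjusted p = 0.0282, called in 6 of 14 alternatives with adjusted p between 0.00909 and 0.107). The call was lost without each library in turn except Asic3-null replicate 3. Flii, the most abundant of the list, had 52.1 ± 3.9 and 54.0 ± 4.8 RPKM (SD, n = 3 each; difference 0.050 with standard error 0.13, limma adjusted p = 0.892).

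Of the 7 tested calpain substrates 2 fell. Flna (filamin A, an actin crosslinker) had 208, 203 and 219 RPKM in the libraries labelled WT and 103, 126 and 140.4 RPKM in those labelled Asic3-null, a difference of -0.77 in log2(RPKM + 1) (standard error 0.14, limma adjusted p = 0.0179, called in 8 of 14 alternatives with adjusted p between 0.00434 and 0.0698). The call held without Asic3-null replicate 3 and was lost without any other library. Ptpn1 (the phosphatase PTP1B) had 49.3, 44.7 and 46.8 RPKM against 31.3, 29.3 and 27.7 RPKM, a difference of -0.66 (standard error 0.13, limma adjusted p = 0.0281, called in 6 of 14 alternatives with adjusted p between 0.0124 and 0.116), and the call was lost with any 1 library left out. Vim, vimentin, the most abundant, had 1023 ± 90 and 857 ± 93 RPKM (SD, n = 3 each, limma adjusted p = 0.352), with overlapping groups.

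Arginine methyltransferases, which modify the residue that deiminases convert, had 7 tested genes. None of them was called (1 at an unadjusted p under 0.05, higher, and none by limma-voom), and their median difference was 0.25 in log2(RPKM + 1). Prmt1, the most abundant of them, had 142 ± 19 RPKM in the libraries labelled WT and 177 ± 49 RPKM in those labelled Asic3-null (SD, n = 3 each, limma adjusted p = 0.512), and Asic3-null replicate 2 was the highest at 233 RPKM.

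Of the 12 chromatin release genes, all tested, 4 fell and none rose (4 and none with limma-voom), and at an unadjusted p under 0.05 the counts were 6 and 1, the latter Ctsg. Cybb, the membrane subunit of the phagocyte oxidase, had 149, 99.1 and 94.6 RPKM in the libraries labelled WT and 34.5, 38.3 and 36.8 RPKM in those labelled Asic3-null, a difference of -1.59 in log2(RPKM + 1) (standard error 0.18, limma adjusted p = 0.00221, called in 14 of 14 alternatives). Ncf4 had 221, 199 and 155 RPKM against 79.9, 102 and 93.4 RPKM, a difference of -1.05 (standard error 0.16, limma adjusted p = 0.00983), and was not called without Asic3-null replicate 3 or WT replicate 2 (adjusted p = 0.0541 and 0.0556). Elane, neutrophil elastase, had 1512 ± 271 and 825 ± 178 RPKM (SD, n = 3 each; difference -0.88 with standard error 0.19, limma adjusted p = 0.0435), and Cyba had 787 ± 56 and 524 ± 73 RPKM (SD, n = 3 each; difference -0.59 with standard error 0.13, limma adjusted p = 0.0454), called in 5 and 6 of 14 alternatives. Elane lost its call with any 1 library left out, and Cyba with any but Asic3-null replicate 2. Prtn3, proteinase 3, the most abundant of the list, had 2205 ± 525 and 1666 ± 102 RPKM (SD, n = 3 each, limma adjusted p = 0.317), with overlapping groups. Mpo, Elane, Prtn3 and Ctsg also stand on the early granule progenitor list.

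**Figure D5:**
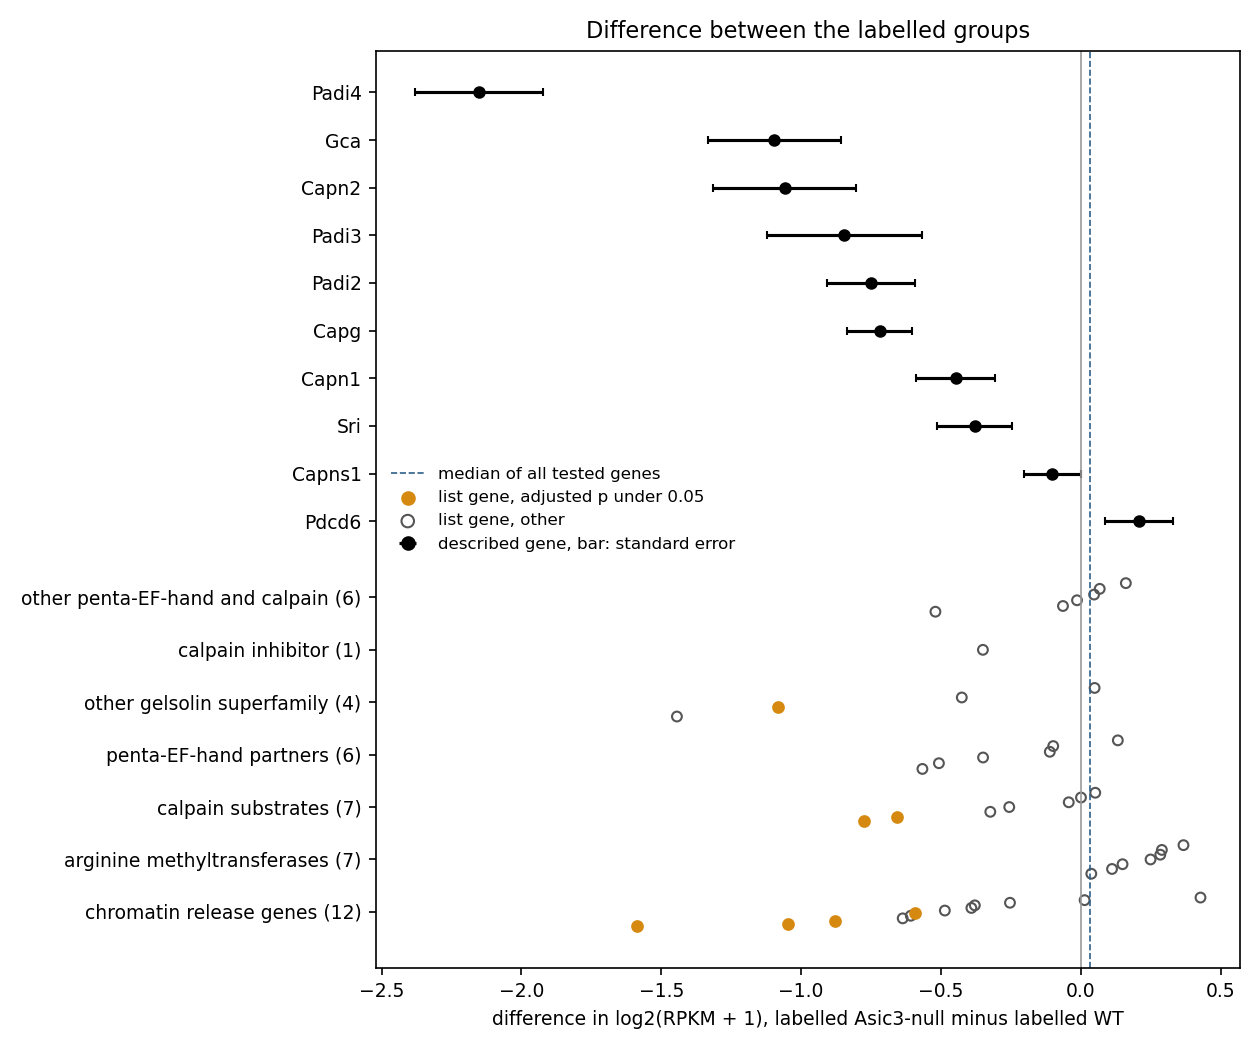
Difference in log2(RPKM + 1), Asic3-null minus WT, for the 10 genes (black, bars are standard errors) and for the tested genes of each list (circles, filled orange where the adjusted p was under 0.05, with the number tested in parentheses). Padi4 lies at -2.15 and Pdcd6 at 0.21, the further penta-EF-hand and calpain genes spread around 0, and the 7 filled circles belong to the gelsolin, calpain substrate and chromatin release lists.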

How the data were processed

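The submitters' processing notes name CASAVA 1.8.2, TopHat2 2.0.12 and GRCm38, and the authors deposited RPKM values for 27179 genes (Entrez numbers) in 6 libraries. The counting tool and annotation are not given in the sources used here. The library kit does not mark strand. RefSeq for GRCm38.p6 gave 25275 symbols, with positions and promoters, and shared exon bases came from GENCODE M21. Whole reads within 0.001 reads were recovered for all 16825 genes above 0 from the steps of the RPKM values. They are inferred, carry no molecular identifiers and cover counting error only.

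The 12037 genes whose mean RPKM reached 1 entered a limma fit (limma 3.58.1, R 4.3.3) of log2(RPKM + 1) on the genotype label, with an intensity trend. P-values were adjusted by Benjamini-Hochberg over all of them and called under 0.05. Differences on this scale understate the change of low genes. The members and lists were chosen with earlier results of these data known. Named were the members, the called and the most abundant gene of each list, the 3 genes most correlated with Padi4, Padi2 and Gca, genes within 500 kb of Padi4, the markers and the checks, while Capn3 and the calpain list genes at 0 were named after their values were seen. Alternatives were a pseudocount of 0.1, no filter, a mean of at least 5 RPKM, median-ratio scaling, quantile normalization, no trend, a replicate block, limma-voom on recovered reads and each library left out. Python 3.11.15, numpy 2.4.6 and pandas 2.3.3 were used. Single values of some marker genes are not reported here.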

Additional observations from a re-analysis of the deposited data

How the results depend on the processing

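The 10 genes kept their direction in all alternatives that held them. Genes called lower and higher, 340 and 63 in all, were 213 and 33 with the replicate block, and 156 to 222 and 16 to 39 with 1 library left out. Of the 10 genes, 4 were called lower, 2 with no filter on low values, 2 with the replicate block and 1 to 2 with 1 library left out. Of the list genes, 7 were called lower, 4 with no filter, 2 with no intensity trend, 4 with the replicate block and 1 to 4 with 1 library left out, and none was called higher in any. Asic3 kept its difference of 1.81 and lost its call with no filter and with the replicate block (1.81 in each), and ranged from 1.54 to 2.07 with 1 library left out. The difference of Flii, not called, ranged from -0.020 (without Asic3-null replicate 3) to 0.11 (without WT replicate 3). The median of all tested genes lay between 0.010 and 0.059 in log2 under the settings.

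Same-numbered libraries showed no strong shared deviation from their group means (correlations of 0.059, -0.059 and -0.12). Pairs with unlike numbers ran from -0.073 to 0.14. With 3 libraries per group these values cannot exclude a weak pairing by number. The block removes 2 degrees of freedom from the fit. Depth limits the precision of Padi3, which rests on 59 reads under the WT label and 27 under the Asic3-null label, and of Gca, with 127 and 53.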
